A study of Homo sapiens with 18 samples.

Results

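Knockdown of MLX in untreated RPE-1 cells was examined by RNA sequencing in 6 of the 18 libraries of the series, 3 from cells that received an siRNA against MLX (siMlx) and 3 from cells that received a control siRNA (siControl). RPE-1 is an hTERT-immortalized human line derived from retinal pigment epithelium. These 6 libraries were chosen by their labels alone, and they were compared over 13676 of the 33121 genes in the count table, those with enough counts to be tested. The siMlx and siControl cells compared here differed, per the labels, only in the siRNA: both had 2 days of transfection with Lipofectamine RNAiMax, and neither was given doxorubicin (DXR), a drug that breaks DNA by trapping topoisomerase. The other 12 libraries, also 3 per group, were siMondoA cells without DXR and siMlx, siMondoA and siControl cells given DXR at 150 ng/ml for 3 days; the siMlx DXR, siControl DXR and siMondoA untreated groups are used below for comparison. All groups share the parental line and the transfection, so no untransfected cells are part of the comparison. The labels do not say how many siRNAs were used against MLX, so loss of MLX and effects of the siRNA on other transcripts cannot be told apart. Nor do they say whether replicates were separate cultures, so the p-values measure the spread between these libraries, which may be technical. The library names carry the tags D0 (untreated) and D5 (DXR), which the labels do not explain, so the day of harvest and DXR cannot be told apart between them.

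MLX is a basic helix-loop-helix leucine zipper protein that binds DNA only with a partner. With MondoA, the product of MLXIP, or with ChREBP, the product of MLXIPL, it binds carbohydrate response elements (ChoREs), paired E-box-like sequences upstream of genes that respond to glucose 6-phosphate. With MXD1, MXD4 or MNT, it forms dimers of the wider MAX network that are linked to repression. The best known MondoA and MLX target is TXNIP, an arrestin-like protein that limits glucose uptake and binds thioredoxin.

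The siMlx libraries held 17061466, 19097476 and 18249928 counts, and the siControl libraries 29219280, 19305200 and 26710438. Over all tested genes, replicates of a group correlated at r = 0.992 to 0.994 across genes (log2 CPM). The control libraries were not alike in every gene group: siControl replicate 1 held more interferon-induced transcripts than the other 2, and the interferon counts below are therefore also given without it. Replicate 1 was also the highest for these transcripts in the siMlx DXR and siControl DXR groups, though not in untreated siMlx. Of the 15 markers of retinal pigment epithelium looked for, 7 passed the low-count filter; the visual cycle enzyme gene RPE65, the tyrosinase gene TYR and the transthyretin gene TTR did not. The epithelial keratins KRT8 (-0.40) and KRT18 (-0.99), which have many pseudogene copies, and the transcription factors OTX2 (-0.46) and MITF (-0.75) were expressed and fell with siMlx (log2 fold changes, siMlx over siControl). These were the 4 called of the 7 tested markers, and the other 3 did not pass the test at an adjusted p under 0.05. Over all tested genes, 23% fell and 24.9% rose. RN7SL1, a signal recognition particle RNA without a poly(A) tail, was at 1.35, 1.41 and 1.72 CPM in siMlx libraries and 9.46, 15.4 and 5.84 CPM in siControl libraries (-2.75, adjusted p = 8.79e-06). It averaged 2.34 CPM in untreated siMondoA, 1.93 CPM in siControl DXR and 3.79 CPM in siMlx DXR cells, so untreated siControl was the highest of these groups. RN7SL2, a close copy, and RN7SK, another small RNA without a poly(A) tail, were lower with siMlx too. Their log2 fold changes were -2.82 and -1.71 (adjusted p = 3.92e-05 and 5.37e-06), and -2.08 and -1.57 in untreated siMondoA against siControl cells. The ribosomal RNA precursor RNA45S5 did not pass the test (-0.33, adjusted p = 0.429). The part of such RNAs in other differences was not tested. Because whole cultures were sequenced, fewer cells expressing a gene and less RNA per cell cannot be told apart.

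The targeted gene fell in every siMlx library. MLX (chr17:42567068-42573239, GRCh38) was measured at 6.79, 7.12 and 7.10 CPM (counts per 1000000, after scaling of library sizes) in siMlx replicates 1 to 3, against 25.8, 27.4 and 25.7 CPM in siControl replicates 1 to 3. The groups did not overlap, and the siMlx mean was 26.7% of the siControl mean (log2 fold change -1.91, SE 0.07, adjusted p = 6.94e-14). Per length, from the deposited RPKM, MLX averaged 2.85 ± 0.0746 in siMlx cells and 10.5 ± 0.303 in siControl cells, and its partner MLXIP 13.9 ± 1.32 in siMlx cells and 12.2 ± 0.700 in siControl cells (SD, n = 3 each). MLXIP did not pass the test, with 84.8, 76.7 and 69.8 CPM in siMlx libraries, 69.5, 72.9 and 63.7 CPM in siControl libraries and an adjusted p of 0.119; without siMlx replicate 3 it passed, at an adjusted p of 0.0424. The partner MLXIPL was all but unmeasured, with 1 count over the siMlx libraries and 2 over the siControl libraries.

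Among the other genes of the MAX and MLX network, changes were small. Of the 11 tested members, 3 rose and 3 fell, MLX included, where 24.9% of all tested genes rose and 23% fell; 5 rose without siMlx replicate 3, and 1 fell without siControl replicate 1 or siMlx replicate 2. MYC, the network's best known activator, rose by 0.51 on the log2 scale (adjusted p = 6.82e-06), with 84.2, 82.6 and 80.8 CPM in siMlx libraries and 60.8, 57.3 and 55.9 CPM in siControl libraries. The repressor genes MNT (0.24) and MXI1 (-0.49) and the MAX partner MGA (0.37) passed the test, with adjusted p of 0.00864, 0.00834 and 0.00776. Each lost its call without certain single libraries, MNT without siControl replicate 1 (adjusted p = 0.0544), MXI1 without siControl replicate 1 (0.0544) or siMlx replicate 2 (0.0648), and MGA without siControl replicate 3 (0.0572) or siMlx replicate 1 (0.0673). The common partner MAX was measured at 58.2 ± 1.54 CPM in siMlx cells and 55.1 ± 4.53 CPM in siControl cells (SD, n = 3 each; adjusted p = 0.337).

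TXNIP transcripts fell strongly. The gene (chr1:145992435-145996600) was measured at 1.18, 2.22 and 3.13 CPM in siMlx libraries, against 10.9, 10.9 and 17.6 CPM in siControl libraries. Every siMlx library was below every siControl library, and the log2 fold change was -2.59 (SE 0.29, adjusted p = 3.61e-07). A second alpha-arrestin, ARRDC3, known for promoting degradation of cell surface receptors, fell as well, to 27.7, 28.9 and 36.7 CPM in siMlx libraries, against 101, 114 and 104 CPM in siControl libraries (-1.77, SE 0.12, adjusted p = 1.68e-10). ARRDC4, the other alpha-arrestin known as a MondoA target, could not be assessed: it had 4 counts over the siMlx libraries and 3 over the siControl libraries. ARRDC2 rose by 0.38 (adjusted p = 0.00307), and ARRDC1 was at 14.7 CPM in siMlx cells and 15.2 CPM in siControl cells (adjusted p = 0.742).

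The TXNIP promoter is shown because it holds the element that MondoA and MLX are known to bind. In the RefSeq window of 250 bases before to 50 bases after each gene's start (GRCh38.p14), the ChoRE letters, 2 copies of CACGNG with any 5 bases between them and searched on both strands, were found in 20 of 35116 windows (0.057%). In TXNIP the match starts 88 bases before the transcription start, at chr1:145996631-145996687 on the minus strand, printed 5′ to 3′ with the match in capitals.
TXNIP: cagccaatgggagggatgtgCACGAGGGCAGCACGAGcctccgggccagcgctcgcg
A match describes the letters only. Of the 13 tested genes with such a match, TXNIP and STX12, an endosomal syntaxin, were lower by at least 2-fold, and the 11 others ranged from -0.48 to 0.73 in log2 fold change. STX12 averaged 22.1 CPM in siMlx cells and 56.5 CPM in siControl cells (log2 fold change -1.35, adjusted p = 1.06e-10). RAN, the GTPase of nuclear transport, averaged 557.9 CPM in siMlx cells and 336 CPM in siControl cells (0.73, adjusted p = 5.29e-09). In siMondoA against siControl cells, both untreated, STX12 was at 0.12 (adjusted p = 0.236) and RAN at -0.08 (0.316), whereas TXNIP fell (-3.46).

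The list of glucose-responsive MondoA and ChREBP targets, which includes TXNIP and ARRDC4, was called about as often as all tested genes. Of 14 tested members, 4 rose and 3 fell, TXNIP among the falls, where 24.9% of all tested genes rose and 23% fell. The median log2 fold change of the 14 was 0.10. Without siControl replicate 3, siMlx replicate 1 or siMlx replicate 2, 2 of them rose. KLF10, a zinc finger factor (-0.38 in log2 fold change), and ACLY, which makes cytosolic acetyl-CoA (-0.54), fell. HK2, the inducible hexokinase, and PFKFB3, which makes the activator of phosphofructokinase, rose by 0.43 and 0.51 (adjusted p = 6.93e-04, 3.48e-06, 0.00101 and 2.64e-05).

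**Figure D1:**
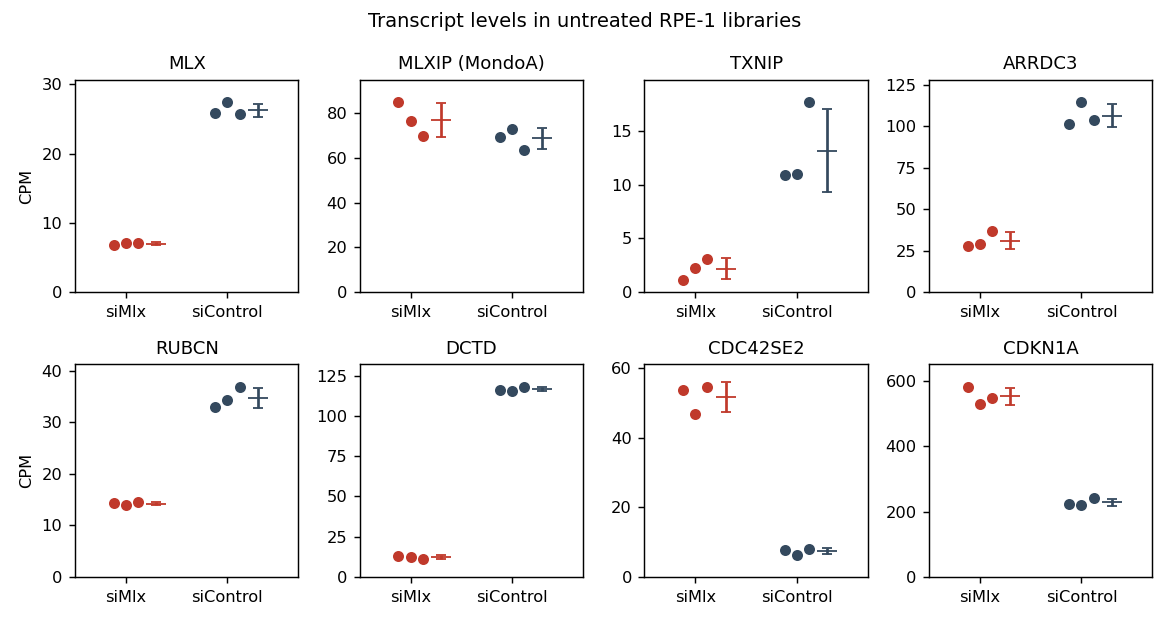
CPM of 8 genes in each untreated library, with siMlx left of siControl; dots are replicates 1 to 3 from left to right, and the bar beside them is the mean ± SD (n = 3). MLX, TXNIP, ARRDC3, RUBCN and DCTD are lower in all 3 siMlx libraries than in any siControl library, CDC42SE2 and CDKN1A are higher, and the MLXIP values overlap.

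Knockdown of MLX was accompanied by broad, mostly modest changes. At an adjusted p under 0.05, 6553 genes (47.9%) were called, 3410 higher (24.9%) and 3143 lower (23%). Changes of at least 2-fold were more often downward, with 719 genes (5.26%) lower and 288 (2.11%) higher. By level alone, all 3 siMlx libraries were below all 3 siControl libraries in 3547 genes (25.9%) and above them in 3839 (28.1%). With the genes split into 4 equal bins by mean level, 11.9% rose and 12.2% fell in the lowest bin, and 30.8% rose and 27.1% fell in the highest. The median transcript length was 4207 bases for genes lower by at least 2-fold, 3103 bases for genes higher by at least 2-fold and 3436 bases for all tested genes.

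**Figure D2:**
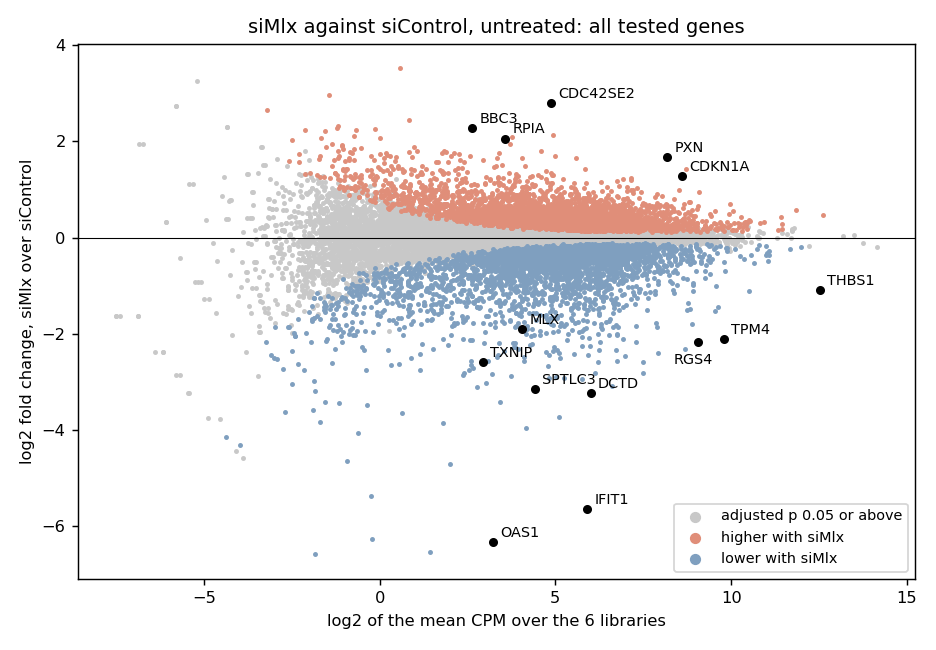
Log2 fold change of siMlx over siControl (vertical axis) against log2 of the mean CPM over the 6 untreated libraries (horizontal axis); each dot is a tested gene, coloured where the adjusted p was under 0.05, and 1 gene without counts in these 6 libraries is not drawn. The 719 genes lower by at least 2-fold extend further from 0 than the 288 higher ones do; among the labelled genes OAS1 lies at -6.34 and CDC42SE2 at 2.79.

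The steepest falls were in genes that interferons induce. In this pathway, interferon receptors activate the kinases JAK1 and TYK2, which phosphorylate STAT proteins; STAT2 and IRF9 are subunits of ISGF3, the factor that binds interferon-stimulated response elements (ISREs). Of the 51 tested interferon-stimulated genes in 3 lists (the OAS family list, the IFIT and IFITM families, and other effectors), 46 fell and 0 rose, and 47 were lower in all 3 siMlx libraries than in any siControl library, where 23% of all tested genes fell and 25.9% did not overlap below. Their median log2 fold change was -1.90, and it was also -1.90 with XAF1 at its bound and the near-absent RSAD2 and CMPK2 left out. Summed over the 52 listed genes, they reached 707, 709.8 and 726 CPM in siMlx libraries, against 2738, 1558 and 1415 CPM in siControl libraries. siControl replicate 1 was far above the other 2, and the lowest siControl sum was still above every siMlx sum. With siControl replicate 1 left out, 36 of the 51 fell, none rose and the median was -1.52.

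Interferons themselves were hardly measured. Of the 10 interferon genes looked for, IFNE alone passed the low-count filter, at 0.842, 0.454 and 0.261 CPM in siMlx libraries and 0.803, 0.407 and 0.866 CPM in siControl libraries (adjusted p = 0.312), and the beta and gamma interferon genes IFNB1 and IFNG did not. Among receptors and transducers, 10 of 15 fell and 1 rose (median -0.60), where 23% of all tested genes fell and 24.9% rose. Without siControl replicate 1 the counts of this list were the same, while without siControl replicate 2 or siMlx replicate 1 none rose. The receptor subunits IFNAR2 (-0.81) and IL10RB (-0.64) fell, with adjusted p of 1.32e-06 and 6.95e-08. IFNAR1 averaged 82.4 ± 1.55 CPM in siMlx cells and 88.1 ± 2.51 CPM in siControl cells (SD, n = 3 each; adjusted p = 0.0995).

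The ISGF3 genes IRF9 and STAT2 fell. IRF9 was measured at 9.88, 10.8 and 9.44 CPM in siMlx libraries, against 66.4, 47.1 and 40.8 CPM in siControl libraries (-2.36, SE 0.17, adjusted p = 7.58e-10). STAT2 reached 16.4, 15.1 and 14.6 CPM in siMlx libraries, against 69.0, 48.5 and 46.3 CPM in siControl libraries (-1.83, SE 0.15, adjusted p = 8.05e-09). For both genes the groups were well apart, and siControl replicate 1 was the highest library. STAT3, which carries interleukin-6 signals, fell too (-0.61, adjusted p = 1.23e-07).

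Negative regulators did not move as a block. USP18, an ISG15-removing protease that also restrains the receptor, fell to 0.112, 0.353 and 0.417 CPM in siMlx libraries, against 14.5, 4.89 and 3.72 CPM in siControl libraries (-4.71, adjusted p = 1.51e-04; -3.79 without siControl replicate 1). SOCS1, an inhibitor of JAK kinases, rose to 7.35, 6.56 and 3.18 CPM in siMlx libraries, against 1.505, 1.94 and 1.59 CPM in siControl libraries (1.78, SE 0.31, adjusted p = 9.81e-05). Its groups did not overlap. SOCS3 (-0.64), PIAS3 (-1.28) and the phosphatase gene PTPN11 (-0.23) fell, with adjusted p of 1.11e-04, 1.19e-12 and 0.00118.

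Among nucleic acid sensors and their adaptors, 8 of 17 tested genes fell and 2 rose (median -0.28), and 7 fell without siControl replicate 1. Over all tested genes, 23% fell and 24.9% rose. IFIH1, which encodes the long double-stranded RNA sensor MDA5, was measured at 1.29, 2.17 and 2.09 CPM in siMlx libraries, against 30.4, 15.9 and 12.8 CPM in siControl libraries (-3.41, SE 0.38, adjusted p = 3.47e-07). The endosomal sensor TLR3 (-2.12) and TRIM25, the ubiquitin ligase that acts on RIG-I (-0.995), fell, with adjusted p of 1.73e-06 and 7.69e-06. The adaptor genes TRAF3 and TICAM1 rose, by 0.79 and 0.55 (adjusted p = 2.49e-09 and 2.82e-04).

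The effectors at the end of the pathway showed the largest ratios. All 5 genes of the OAS family list and all 7 of the IFIT and IFITM list fell, where 23% of all tested genes did. Without siControl replicate 1, 4 and 7 fell. IFIT1, a binder of foreign RNA caps, was at 2.53, 2.17 and 2.35 CPM in siMlx libraries, against 216, 79.4 and 56.1 CPM in siControl libraries (-5.65, SE 0.62, adjusted p = 3.32e-07). OAS1, an oligoadenylate synthetase that senses double-stranded RNA, was at 0.112, 0.353 and 0.209 CPM in siMlx libraries, against 34.8, 11.8 and 9.16 CPM in siControl libraries (-6.34, SE 0.97, adjusted p = 2.14e-05). In both genes siControl replicate 1 was well above the other control libraries, and without it the log2 fold changes were -4.85 and -5.46.

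Some of these genes were nearly absent after knockdown, and their ratios are counts of few reads. OAS2 had 3 counts over the siMlx libraries and 432 over the siControl libraries, a 106-fold lower level (95% exact counting interval 36.0 to 515). Its fitted log2 fold change was -6.54, and -5.89 without siControl replicate 1 or -7.44 without siMlx replicate 1. OASL had 2 counts in siMlx libraries and 134 in siControl libraries, 49.2-fold lower (13.4 to 411). XAF1, a proapoptotic interferon-induced gene, had no count in siMlx libraries and 46 in siControl libraries, which at a floor of 3 counts over the group is at least 11.3-fold lower. The XAF1 call was lost without siControl replicate 1 (adjusted p = 0.116) and without any single siMlx library (0.0608 to 0.0686). These intervals cover counting error only.

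The remaining effectors had a median nearer to 0. The median of the 39 other effectors was -1.76, and 34 of them fell, where 23% of all tested genes did. Without siControl replicate 1, 25 fell, where 2822 of all 13887 genes tested in that setting did. IFI6, a mitochondrial antiviral protein, had 4.83, 5.60 and 3.97 CPM in siMlx libraries, against 115, 38.7 and 37.9 CPM in siControl libraries (-3.74; -2.99 without siControl replicate 1). IFI44 (-3.02) and IFI44L (-3.97; -3.25 without that library), PARP9 (-2.51) and its partner DTX3L (-1.73), a ubiquitin ligase, all fell, as did OAS3 (-2.06), IFIT3 (-2.82), IFIT2 (-2.87) and IFITM1 (-3.85; -2.98 without that library).

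Transcripts for antigen presentation by MHC class I, a constitutive function that interferons raise, were also mostly lower. Of 17 tested members, 13 fell and none rose (median -0.43), and 11 fell without siControl replicate 1. Over all tested genes, 23% fell and 24.9% rose. B2M, the shared light chain, was at 302, 325 and 359 CPM in siMlx libraries, against 686, 618 and 608 CPM in siControl libraries (-0.96, SE 0.09, adjusted p = 3.96e-08). The immunoproteasome subunit PSMB9 (-2.22), the proteasome activator PSME2 (-0.64), the peptide-trimming enzyme ERAP1 (-0.56) and the loading factor TAPBP (-0.49) fell as well. The HLA class I genes share much sequence, so reads may have been split among them.

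ISRE letters are printed for 4 of these genes, chosen among those whose promoter windows hold a match. The ISRE core, 2 copies of GAAA with any 2 bases between them and searched on both strands in the same RefSeq windows, was present in 3.57% of all 35116 windows and in 4.12% of the 9830 tested genes that had a window. It was present in 31 of the 43 interferon-stimulated genes with a window (72.1%), in 8.21% of the 524 genes lower by at least 2-fold and in 2.19% of the 183 genes higher by at least 2-fold. Capitals mark the matches, which show 2 copies of TTTC where they lie on the other strand. IFIT1 is shown at chr10:89392487-89392549 and IFITM1 at chr11:313980-314063, both on the plus strand, IFI6 at chr1:27672256-27672368 on the minus strand and IFI44 at chr1:78649751-78649800 on the plus strand.
IFIT1: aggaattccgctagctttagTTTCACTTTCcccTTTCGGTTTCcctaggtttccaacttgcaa
IFITM1: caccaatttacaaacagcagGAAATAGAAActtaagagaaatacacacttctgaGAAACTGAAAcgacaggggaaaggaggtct
IFI6: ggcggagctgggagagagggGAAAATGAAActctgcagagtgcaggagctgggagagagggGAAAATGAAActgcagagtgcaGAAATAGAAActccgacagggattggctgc
IFI44: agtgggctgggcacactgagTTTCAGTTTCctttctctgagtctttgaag
The IFIT1 matches start 116 and 103 bases before the transcription start, and those of IFITM1 40 and 6 bases before it. IFI6 holds 3 matches between 156 and 93 bases before its start. The log2 fold changes of these 4 genes were -5.65, -3.85, -3.74 and -3.02. The window of OAS1, which fell by more (-6.34), holds no match, and no window was available for OAS2 and USP18.

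**Figure D3:**
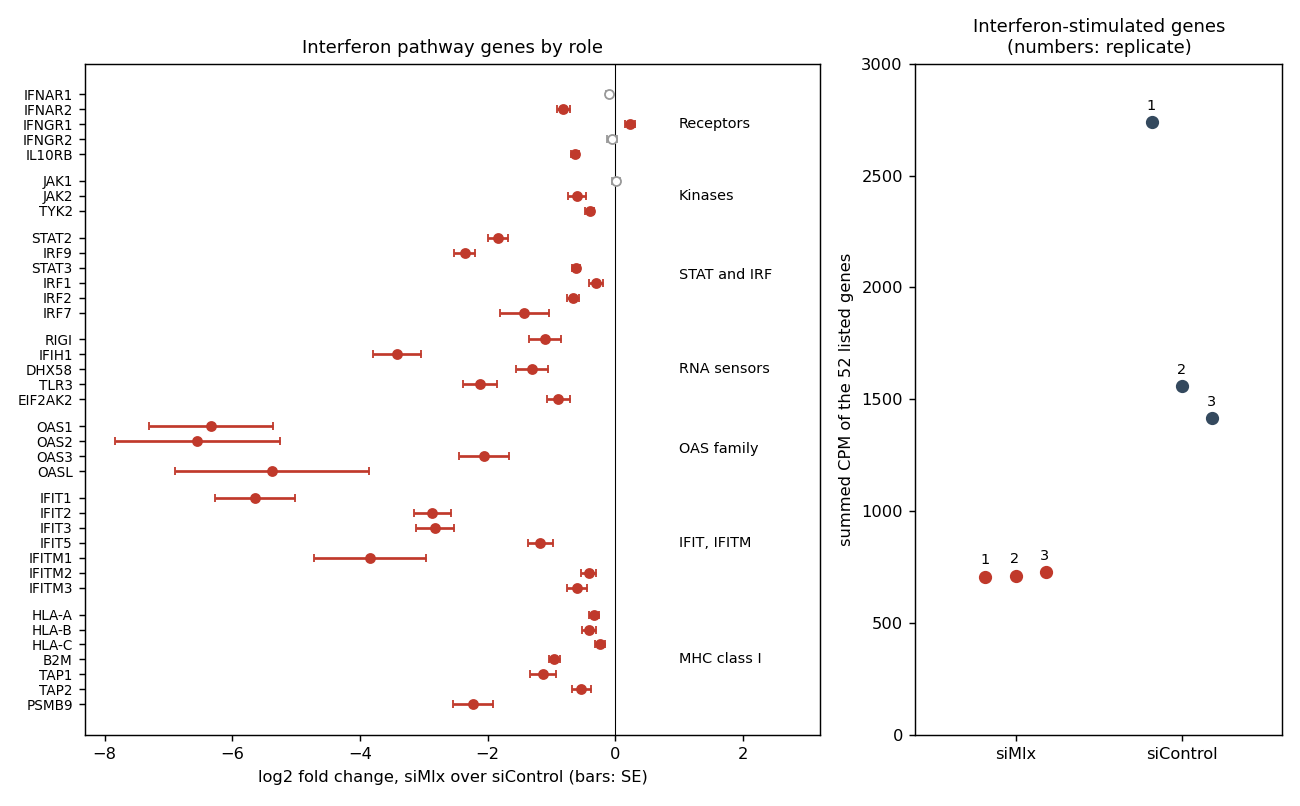
Left, log2 fold change of siMlx over siControl in untreated cells (horizontal axis, bars: SE) for interferon pathway genes grouped by role; filled points passed the test. Right, summed CPM of the 52 listed interferon-stimulated genes in each library, siMlx left of siControl, numbered by replicate; all 3 siMlx sums lie near 710 and siControl replicate 1 stands above the other 2 siControl libraries.

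Outside the interferon group, the largest falls by ratio, among genes averaging 5 CPM or more in one of the groups, were in genes of unrelated functions. DCTD, the dCMP deaminase that supplies dUMP for thymidylate synthesis (chr4:182890060-182917936), fell to 13.2, 12.4 and 11.3 CPM in siMlx libraries, against 116, 115 and 118 CPM in siControl libraries, 9.45-fold lower (-3.24, SE 0.06, adjusted p = 1.01e-17). SPTLC3, a subunit of serine palmitoyltransferase, fell to 3.54, 3.69 and 5.63 CPM in siMlx libraries, against 36.7, 35.2 and 42.5 CPM in siControl libraries (-3.15, SE 0.20, adjusted p = 1.17e-10). The groups were far apart in both genes, and replicates lay close together for DCTD but less so for SPTLC3 in siMlx libraries. NEK7, a mitotic kinase that also serves the NLRP3 inflammasome (-3.09), RBPJ, the DNA-binding effector of Notch (-2.94), ISCA1, a mitochondrial iron-sulfur cluster assembly protein (-2.92), and ATPSCKMT (listed as FAM173B), which methylates the ATP synthase c subunit (-3.11), fell too. Their adjusted p were 2.82e-13, 2.21e-16, 1.39e-16 and 1.68e-11.

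By amount of transcript, the largest losses included cytoskeletal, secreted and secretory pathway genes. THBS1, encoding the matrix protein thrombospondin 1, fell to 4210.5, 4059 and 2972 CPM in siMlx libraries, against 8755, 9174 and 6072 CPM in siControl libraries (-1.09, SE 0.16, adjusted p = 1.01e-05). TPM4, a tropomyosin, fell to 337, 329 and 335 CPM in siMlx libraries, against 1514, 1465 and 1353 CPM in siControl libraries (-2.11, SE 0.07, adjusted p = 4.41e-15). In these abundant genes too no siMlx library reached the siControl range. The myosin light chain MYL6 (-1.45), the calcium-binding protein of the secretory pathway CALU (-1.53), the gelatinase MMP2 (-0.49), RGS4, which speeds GTP hydrolysis by G proteins (-2.18), the ferritin heavy chain FTH1 (-1.12) and lactate dehydrogenase A LDHA (-0.52) fell as well. FTH1 has near-identical pseudogene copies, so its count is uncertain.

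Rises of at least 2-fold were fewer than such falls, and the largest were smaller in ratio. CDC42SE2, a small effector of the GTPase CDC42 (chr5:131245493-131398447), rose to 53.7, 46.9 and 54.5 CPM in siMlx libraries, against 7.79, 6.42 and 8.04 CPM in siControl libraries, 6.91-fold higher (2.79, SE 0.09, adjusted p = 4.73e-15). RPIA, ribose 5-phosphate isomerase, rose to 19.0, 19.7 and 18.8 CPM in siMlx libraries, against 4.48, 3.97 and 5.23 CPM in siControl libraries (2.06, SE 0.12, adjusted p = 5.64e-11). Neither pair of groups overlapped. NAT8L, which makes N-acetylaspartate (2.096), the aggrecanase ADAMTS5 (1.94), the sialyltransferase ST6GAL2 (1.697), the transcription factor E2F5 (1.75) and the HMG-box factor TOX (1.704) rose, with adjusted p of 4.33e-11, 8.77e-09, 8.30e-07, 8.30e-07 and 6.21e-08. C4orf46 (2.12), MEX3D (1.80), PALD1 (1.80) and GPR157 (1.77) were also among the 15 largest rises of the naming rule.

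Abundant transcripts rose by less on the log scale. The largest gain in amount was in ACTG1, cytoplasmic gamma actin, with 7572, 7676 and 6580.4 CPM in siMlx libraries, against 5208, 5640.2 and 4871 CPM in siControl libraries (0.47, adjusted p = 1.03e-04). ARL6IP1, an endoplasmic reticulum shaping protein, rose to 551, 616 and 656 CPM in siMlx libraries, against 203, 213 and 267 CPM in siControl libraries (1.42, adjusted p = 1.71e-10). PXN, the focal adhesion adaptor paxillin, rose to 441, 440.4 and 438 CPM in siMlx libraries, against 132, 135 and 147 CPM in siControl libraries (1.67, adjusted p = 2.34e-15). The intermediate filament VIM (0.57), the fibronectin receptor subunit ITGA5 (0.44), tubulin TUBB (0.28), the translation factor EIF5A (0.69), the membrane metalloprotease MMP14 (0.33) and the metallothionein MT2A (0.54) rose. ACTG1, TUBB, EIF5A and MT2A have close copies elsewhere in the genome that may have shared their reads.

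Transcripts of p53 targets were mostly higher. Of 38 tested, 25 rose and 5 fell (median 0.49), where 24.9% of all tested genes rose. CDKN1A, encoding the CDK inhibitor p21, rose to 581, 529.6 and 548 CPM in siMlx libraries, against 223, 220.0 and 241 CPM in siControl libraries (1.28, SE 0.08, adjusted p = 5.36e-11). BBC3, encoding the proapoptotic protein PUMA, rose to 12.6, 10.6 and 7.77 CPM in siMlx libraries, against 2.31, 1.68 and 2.27 CPM in siControl libraries (2.28, SE 0.17, adjusted p = 9.73e-10). Every siMlx library was above every siControl library in both. BAX (0.59), the AKT inhibitor PHLDA3 (0.79) and CYFIP2, a WAVE complex subunit (1.77), rose, whereas the ribonucleotide reductase subunit RRM2B fell (-0.60), and so did MDM2 (-0.65), the ubiquitin ligase that degrades p53, which was named after its values were seen.

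The BCL2 family moved in both directions within its proapoptotic arm. Of 13 tested, 8 rose and 4 fell, where 24.9% of all tested genes rose and 23% fell. The pore former BAK1 rose with BAX and BBC3, by 0.64, while the BH3-only gene BMF fell to 26.8, 28.3 and 28.5 CPM in siMlx libraries, against 64.4, 83.0 and 69.3 CPM in siControl libraries (-1.37, adjusted p = 2.36e-10). BCL2L2, a survival gene, fell too (-0.60). Among 7 tested CDK inhibitors, 3 rose, namely CDKN1A, CDKN1B (0.27, adjusted p = 7.91e-04) and CDKN2A (0.36, adjusted p = 0.0127). The CDKN2A call was lost without siControl replicate 1 (adjusted p = 0.0567) and without siMlx replicate 2 (0.098).

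Few genes of the dividing cell passed the test. Of 35 tested mitotic genes, 2 rose and 1 fell (median -0.02, or 0.02 with upper-quartile scaling), and of 35 DNA replication genes, 3 rose and 8 fell (median -0.07). Over all tested genes, 24.9% rose and 23% fell. The replication genes that fell numbered 2 without siControl replicate 3, siMlx replicate 1 or siMlx replicate 2 and 4 with upper-quartile scaling, and over the alternatives 0 to 7 mitotic genes rose and 1 to 6 fell. Members that did pass include the cytokinesis scaffold ANLN (-0.70), the DNA methylation factor UHRF1 (-0.69) and the polymerase delta subunit POLD3 (-1.19), which fell, and the origin recognition subunit ORC6 (0.91), which rose. PLK1 and INCENP were called higher (0.43 and 0.34, adjusted p = 0.0191 and 0.0497). PLK1 lost this call without siControl replicate 1 or 2 or siMlx replicate 3 (adjusted p = 0.0609 to 0.0939), and INCENP without any single library other than siControl replicate 3 (0.0577 to 0.18). LMNB1, the nuclear lamin known to drop in senescent cells, rose to 121, 140.0 and 144 CPM in siMlx libraries, against 82.2, 79.6 and 108 CPM in siControl libraries (0.58, SE 0.15, adjusted p = 0.00260).

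In the G1/S group, 3 of 23 tested genes rose and 5 fell, and 5 rose without siControl replicate 3. The list was called in 34.8% of its tested genes, against 47.9% of all tested genes (24.9% higher and 23% lower). CDK6, the partner of D-type cyclins, fell to 91.5, 91.1 and 92.0 CPM in siMlx libraries, against 218, 195 and 192 CPM in siControl libraries (-1.14, adjusted p = 4.33e-12). RBL1, encoding the pocket protein p107 (-1.35), and the phosphatase CDC25A (-0.82) fell, while the cyclin E gene CCNE1 (0.95) and the transcription factor gene E2F3 (0.60) rose, with adjusted p of 3.56e-07, 2.54e-05, 1.98e-05 and 1.81e-07.

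Deoxynucleotide and sphingolipid enzymes held several of the strongest metabolic falls. In deoxynucleotide synthesis 5 of 17 tested genes fell and 4 rose, a share near the background, but DCTD was joined by CMPK1, the UMP and CMP kinase, at 48.3, 44.8 and 48.5 CPM in siMlx libraries, against 179.9, 171 and 165 CPM in siControl libraries (-1.87, adjusted p = 1.49e-15). SAMHD1, which degrades dNTPs, fell (-1.05, adjusted p = 9.31e-04). NME1, a nucleoside diphosphate kinase, rose by 0.46, although reads may be shared with its neighbour NME2. In sphingolipid synthesis 11 of 22 fell and 3 rose (median -0.22), where 23% of all tested genes fell and 24.9% rose. Beside SPTLC3, both sphingomyelin synthases fell, SGMS2 to 21.8, 25.6 and 27.9 CPM in siMlx libraries, against 97.8, 88.0 and 90.9 CPM in siControl libraries (-1.88, adjusted p = 1.45e-13), and SGMS1 with a log2 fold change of -1.59 (adjusted p = 6.82e-09). The sphingosine 1-phosphate receptor S1PR3 (-1.14) and the synthesis inhibitor ORMDL1 (-0.73) fell too.

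Sugar metabolism changed at individual enzymes. Of 23 tested glycolytic genes, 10 rose and 5 fell (median 0.09), where 24.9% of all tested genes rose and 23% fell. The glucose transporter SLC2A3 (0.58), HK2 (0.43) and the bifunctional enzymes PFKFB3 (0.51) and PFKFB4 (0.50) rose, and muscle phosphofructokinase PFKM (-0.83) and LDHA (-0.52) fell. In the pentose phosphate pathway, 3 of 7 rose, among them RPIA and the oxidative enzyme PGD (0.57), and 1 fell. For serine and one-carbon metabolism, 7 of 15 rose and 1 fell (median 0.24), with the serine synthesis enzyme PSAT1 (0.66) and the mitochondrial folate enzyme MTHFD2 (0.68) higher. PRDX3, the mitochondrial peroxiredoxin, rose by 0.18 (adjusted p = 0.00690), with 270.1 ± 14.6 CPM in siMlx cells and 239 ± 4.41 CPM in siControl cells (SD, n = 3 each); with no low-count filter its adjusted p was 0.0592.

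Genes of protein synthesis were mostly higher. Among ribosome biogenesis and RNA polymerase I genes 27 of 38 rose and 2 fell (median 0.31), where 24.9% of all tested genes rose and 23% fell; 1 fell without siMlx replicate 2 or 3. RRN3, the polymerase I initiation factor, rose to 68.8, 71.1 and 70.4 CPM in siMlx libraries, against 39.9, 37.9 and 41.0 CPM in siControl libraries (0.82, SE 0.06, adjusted p = 4.11e-10), although it has close pseudogene copies. The nucleolar helicase DDX21 (0.52), nucleolin NCL (0.45) and the large-subunit assembly factor WDR12 (0.53) rose as well. Of 20 cytosolic aminoacyl-tRNA synthetases, 12 rose and 1 fell (median 0.20), and 0 fell without any single library other than siControl replicate 1. The rises were led by TARS (0.36), VARS (0.34) and MARS (0.29). Of 28 tested ATF4 targets, 16 rose and 5 fell (median 0.37): ATF4 itself reached 285, 276 and 242 CPM in siMlx libraries, against 178, 180.1 and 181 CPM in siControl libraries (0.57, adjusted p = 1.46e-06), and CHAC1, which degrades glutathione, rose by 1.73 on the log2 scale. Summed over the ATF4 list, levels were 4411, 4431 and 4144 CPM in siMlx libraries, against 4635, 5145 and 4672 CPM in siControl libraries, so that the sum was lower in every siMlx library.

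Autophagy genes were called in both directions, and those of initiation and elongation about as often as all tested genes. RUBCN (listed as KIAA0226), which encodes Rubicon, a negative regulator of autophagosome maturation, fell to 14.3, 13.9 and 14.5 CPM in siMlx libraries, against 33.0, 34.3 and 36.8 CPM in siControl libraries (-1.29, SE 0.10, adjusted p = 3.38e-09). Of 33 tested initiation and elongation genes, 9 rose and 10 fell (median 0.03), where 24.9% of all tested genes rose and 23% fell. The lipid transfer gene ATG2B (-1.13), ATG14 (-1.12) and PIK3C3 (-0.76), both of the class III PI3-kinase complex, and ATG13, of the ULK1 complex (-0.68), fell, with adjusted p of 2.30e-11, 9.83e-08, 9.63e-08 and 1.18e-08. Among receptors and fusion genes 9 of 19 fell and 5 rose (median -0.20), and 3 rose without siControl replicate 3 or siMlx replicate 2. STX17, the syntaxin of autophagosome fusion, fell to 21.2, 21.4 and 24.9 CPM in siMlx libraries, against 61.8, 55.4 and 56.2 CPM in siControl libraries (-1.36, adjusted p = 1.49e-11), and the receptor CALCOCO2 fell too (-1.08).

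Among mitophagy genes 2 of 12 rose and 3 fell (median -0.08), a share near the 24.9% and 23% of all tested genes. The mitophagy receptor BNIP3L fell to 52.5, 59.2 and 59.4 CPM in siMlx libraries, against 257, 259.5 and 252 CPM in siControl libraries (-2.17, SE 0.07, adjusted p = 2.38e-15), and the kinase PINK1 fell too (-1.15, adjusted p = 7.67e-10). Of 45 tested lysosomal genes 19 fell and 3 rose (median -0.11). LAMP2, a major lysosomal membrane protein, fell to 142, 143 and 148 CPM in siMlx libraries, against 322, 309 and 308 CPM in siControl libraries (-1.11, adjusted p = 2.52e-10), and the thioesterase PPT1 (-0.84), the proton pump subunit ATP6V1A (-0.44) and the receptor SCARB2 (-0.41) fell less. Among regulators of TFEB, FNIP2 fell (-1.30) and its partner folliculin, FLCN, rose (0.67), with adjusted p of 4.91e-10 and 2.18e-08.

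**Figure D4:**
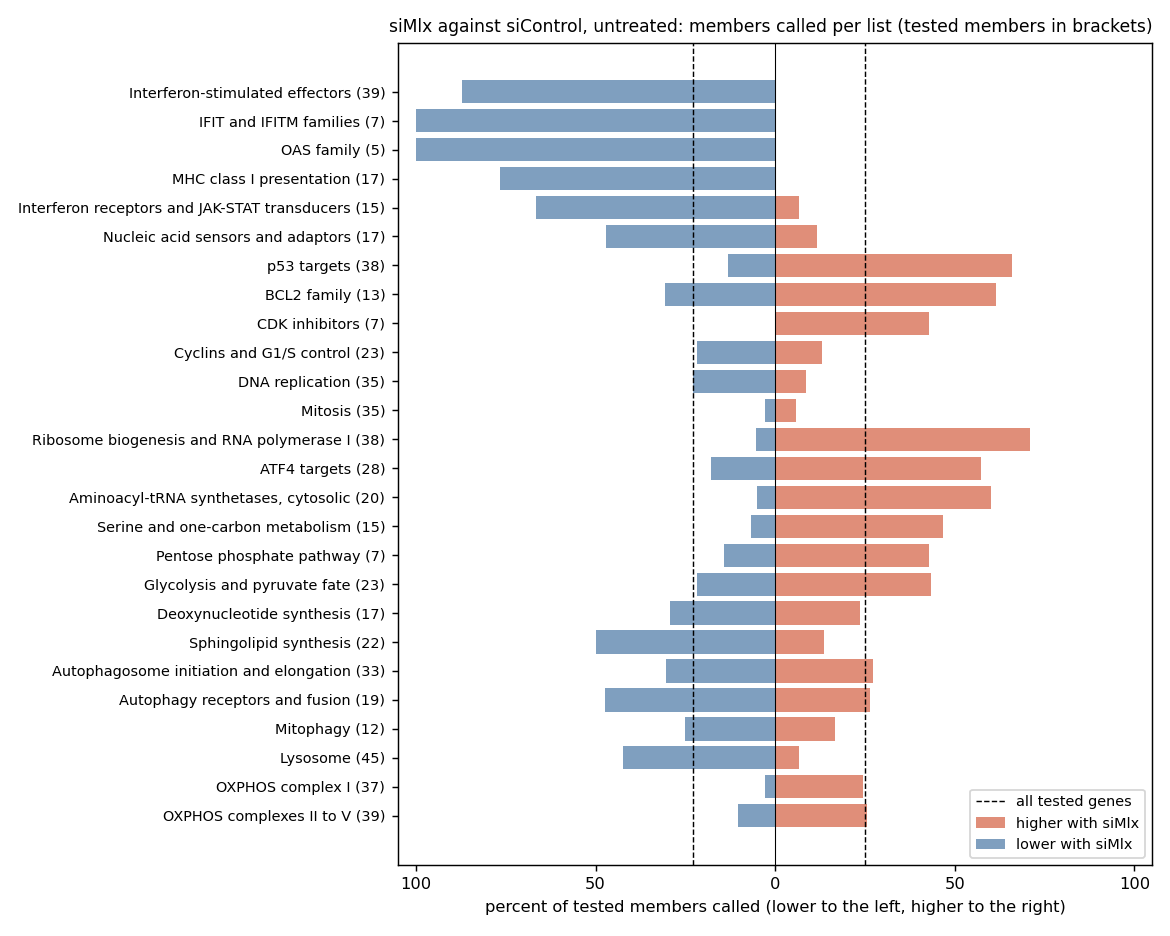
Percent of the tested members of each gene list called higher (right) or lower (left) with siMlx in untreated cells at an adjusted p under 0.05; dashed lines mark 24.9% higher and 23% lower over all tested genes. The interferon lists lie to the left, with all 5 and all 7 tested members of the OAS and IFIT lists lower, and ribosome biogenesis, p53 target and tRNA synthetase lists to the right.

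Cells under the same siMlx label were also measured after DXR, in libraries that share none with the untreated comparison. MLX averaged 5.52 ± 0.530 CPM in siMlx DXR cells and 26.5 ± 0.213 CPM in siControl DXR cells (SD, n = 3 each; -2.27, adjusted p = 5.78e-14). Of the 6553 genes called in untreated cells, 5853 (89.3%) had the same direction in DXR cells and 3157 (48.2%) were also called there in that direction, while 39 were called in the opposite one. The 3157 made up 76.5% of the 4129 genes called in DXR cells (30.2% of tested genes). Of the 719 genes lower by at least 2-fold in untreated cells, 539 (75.0%) were called lower in DXR cells too, and their medians were -0.78 in DXR and -1.41 in untreated cells. Of the 288 higher by at least 2-fold, 158 (54.9%) were called higher in DXR cells, with medians of 0.65 in DXR and 1.27 in untreated cells. Since these genes were selected on their untreated size, the smaller DXR medians are a description.

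The test of the difference between the 2 effects, an interaction term, called 1675 genes (12.2%), and in 1409 of them the siMlx effect was smaller in DXR cells. Over all tested genes it was smaller in DXR cells in 66.0%, with a median absolute log2 fold change of 0.19 in DXR and 0.28 in untreated cells, and 473 of the 1675 had opposite signs. Of the interferon-stimulated genes, 50 of 51 fell in DXR cells, where 16.2% of all tested genes did (median -2.06), and 6 of the 51 had a called interaction. Summed over the 52 listed, replicates 1 to 3 held 2521, 1388 and 1606 CPM in siMlx DXR cells. In siControl DXR cells they held 8023, 5390 and 6743 CPM. Replicate 1 was the highest in both groups, and these DXR counts are not given without it. TXNIP fell in DXR cells too (-2.73), with an interaction of -0.14 (adjusted p = 0.869). Ribosome biogenesis genes differed more, with 2 of 38 higher in DXR cells (median 0.06; background 14% higher) and 17 called interactions. Among p53 targets, 18 of 38 rose in DXR cells (median 0.21) and 23 interactions were called, including CDKN1A (0.49 in DXR and 1.28 in untreated cells, interaction adjusted p = 6.64e-05). Mitotic genes fell in DXR cells, 32 of 35 (median -1.001), and 25 of their interactions were called. LMNB1 had opposite signs, -0.50 in DXR and 0.58 in untreated cells (interaction adjusted p = 0.00627).

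In the 5 genes with the smallest interaction p, the siMlx effect was larger without DXR. TGOLN2, a trans-Golgi membrane protein, fell to 51.8, 46.8 and 55.5 CPM in siMlx libraries, against 318, 298 and 303 CPM in siControl libraries (-1.19 in DXR and -2.58 in untreated cells; interaction 1.38, adjusted p = 4.17e-08). CMTM6, which keeps PD-L1 at the cell surface, fell too (-1.04 in DXR and -2.47 in untreated cells; interaction adjusted p = 4.86e-08). The kinesin KIF1C was at -0.03 in DXR cells (adjusted p = 0.700) and fell in untreated cells (-1.14; interaction adjusted p = 4.86e-08). TPM4 (-0.74 in DXR and -2.11 in untreated cells) and PXN (0.69 in DXR and 1.67 in untreated cells) likewise differed, with interaction adjusted p of 4.17e-08 and 5.12e-08.

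**Figure D5:**
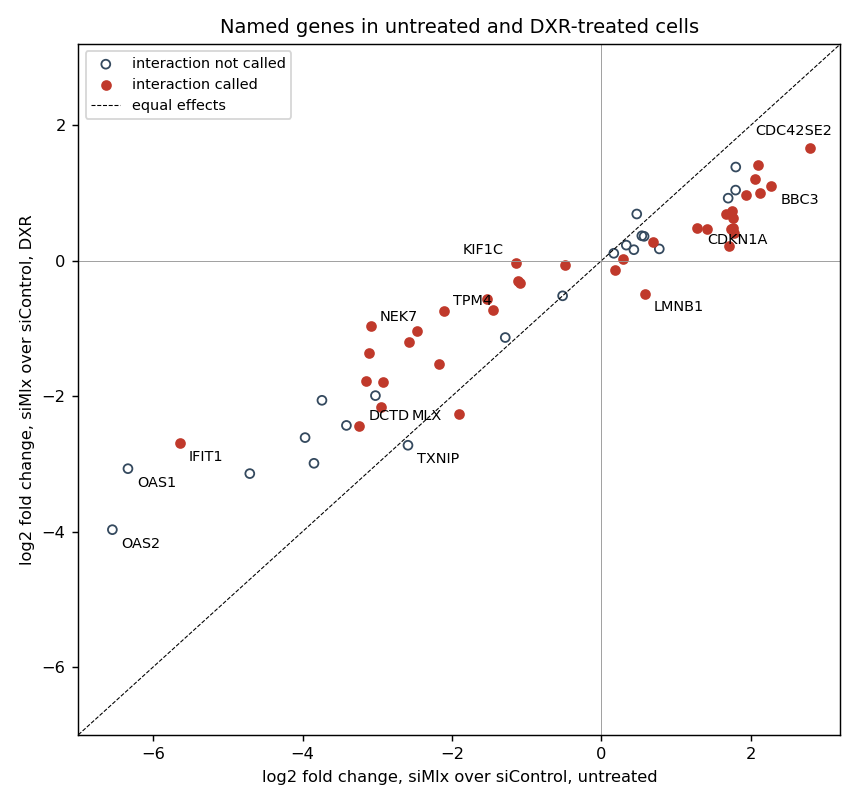
Log2 fold change of siMlx over siControl in DXR-treated cells (vertical axis) against untreated cells (horizontal axis) for genes named by rule; filled points have a called interaction and the dashed line marks equal effects. Most points lie nearer to 0 on the DXR axis, TXNIP lies close to the line, and LMNB1 changes sign.

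Knockdown of the partner MondoA, measured against the same siControl libraries, gives a second view of these genes. Because the 2 comparisons share their controls, their values are given side by side, and the difference was tested directly between siMlx and siMondoA libraries. That test called 8060 genes (58.9%). MLXIP was at 77.1 ± 7.52 CPM in siMlx cells and 3.85 ± 0.646 CPM in siMondoA cells (SD, n = 3 each), and MLX at 7.002 ± 0.182 CPM in siMlx cells and 49.2 ± 2.59 CPM in siMondoA cells; MLX in siMondoA cells was above its siControl level (0.91, adjusted p = 5.26e-10). TXNIP fell in both (-2.59 with siMlx and -3.46 with siMondoA), with a difference of 0.87 that missed the threshold (adjusted p = 0.0915).

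Among other genes with strong siMlx changes, some differed between the knockdowns and some did not. DCTD, NEK7, CDC42SE2, SPTLC3 and RPIA were chosen by their small p between siMlx and siMondoA, so their differing is no separate result. Named genes that did not pass include THBS1 (-1.09 with siMlx and -1.11 with siMondoA), CDKN1A (1.28 and 1.13) and GPR157 (1.77 and 1.37). Their adjusted p of the difference were 0.958, 0.111 and 0.0808. ARRDC3 was at -1.77 with siMlx and 0.24 with siMondoA (adjusted p of the difference 1.56e-11), and RUBCN at -1.29 with siMlx and 0.07 with siMondoA (difference 1.03e-09). DCTD averaged 12.3 ± 0.967 CPM in siMlx cells and 130.2 ± 6.71 CPM in siMondoA cells, NEK7 20.4 ± 0.736 CPM in siMlx cells and 152 ± 3.26 CPM in siMondoA cells, and CDC42SE2 51.7 ± 4.20 CPM in siMlx cells and 11.1 ± 0.892 CPM in siMondoA cells (SD, n = 3 each), with adjusted p of the difference of 4.43e-18, 4.47e-13 and 7.54e-14. SPTLC3 was at -3.15 with siMlx and 0.30 with siMondoA, and RPIA at 2.06 with siMlx and -0.85 with siMondoA (differences at adjusted p of 1.77e-11 and 1.07e-12).

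Gene groups separated the 2 knockdowns further. Of the 51 interferon-stimulated genes, 46 fell with siMlx and 11 with siMondoA, where 23.3% of all tested genes fell, and 36 were lower in siMlx than in siMondoA cells, where 28.5% were. DNA replication and mitotic genes fell with siMondoA, all 35 tested in each list, and 34 and 35 of them were higher in siMlx than in siMondoA cells (background 30.4%). Of the ribosome biogenesis genes, 27 rose with siMlx and 3 with siMondoA, and 29 were higher in siMlx cells. Lysosomal genes were lower in siMlx than in siMondoA cells in 19 of 45 cases and autophagy receptor and fusion genes in 12 of 19. Among the 38 p53 targets, 25 rose with siMlx and 19 with siMondoA, where 24.9% and 23.3% of all tested genes rose. Tested directly, 24 were higher and 6 lower in siMlx than in siMondoA cells.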

How the data were processed

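RNA from RPE-1 cells was purified with RNeasy Plus and sequenced as TruSeq Stranded mRNA libraries, per the labels' protocols. Per the submitters' processing notes, bcl2fastq and TopHat2 2.1.1 were used with GRCh38; no source used here gives the counting program, its annotation or its strand setting, so reads of overlapping or antisense genes cannot be told apart. The authors deposited 2 tables of 33121 genes for the 18 libraries, raw read counts per gene and RPKM. In the deposited RPKM table each value equals the count divided by a whole-number gene length and the library total, in all 24846 genes with a count, within 0.01 bases of length. RPKM was used only for levels per length.

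Counts were tested with edgeR 4.0.16 (limma 3.58.1, R 4.3.3): filterByExpr by group kept 13676 genes, libraries were scaled by TMM, and quasi-likelihood tests (two-sided) were fitted with 1 mean per group over all 18 libraries and 12 residual degrees of freedom. P-values were adjusted by Benjamini-Hochberg over all 13676 genes, with a threshold of 0.05. The CPM values use the TMM library sizes, and SE is the log2 fold change divided by the root of its F statistic. The code was tested on simulated data before use.

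The members and the 47 gene lists were chosen with earlier results of these data known. Genes named are fixed genes of the MLX pathway, the 15 largest fitted changes in each direction among called genes whose groups did not overlap and whose higher group averaged 5 CPM or more, the 8 largest CPM differences in each direction, up to 5 members per list by p, the 5 genes with the smallest interaction p and the 8 with the smallest p against siMondoA. MDM2, XAF1, MAX, IFNAR1, RN7SL1, RN7SL2, RN7SK, RNA45S5, STX12 and RAN were added after their values were seen. Some genes of the lists are counted but not reported here by name. Intervals and the floor of 3 counts over the 3 libraries of a group cover counting error only. Promoter windows came from RefSeq (GRCh38.p14), matched by symbol for 9830 of the 13676 genes. Alternatives were RLE and upper-quartile scaling, a filter of 1 CPM in 3 libraries, no low-count filter, DESeq2 1.42.0, the 6 libraries fitted alone, the replicate number as a block and each library left out in turn.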

Additional observations from a re-analysis of the deposited data

Results flagged for a closer look

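The genes below are those named in the text whose siMlx effect differed between DXR-treated and untreated cells in the test of the interaction (edgeR quasi-likelihood test, adjusted p under 0.05). Each value is the siMlx effect on the log2 scale in DXR-treated cells minus that in untreated cells, so that a positive value for a gene that fell means a smaller fall with DXR.

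MLX itself differed by -0.36, since its fall was larger in DXR-treated cells (-2.27) than in untreated cells (-1.91). In the interferon pathway the differences were 2.96 for IFIT1, 1.56 for IRF9, 0.32 for IL10RB, 0.82 for PIAS3 and 0.33 for PTPN11, and -1.37 for SOCS1 and -0.41 for TRAF3, both of which rose in untreated cells. Among the largest falls they were 2.12 for NEK7, 1.74 for ATPSCKMT, 1.38 for SPTLC3, 1.13 for ISCA1, 0.81 for DCTD and 0.79 for RBPJ. For genes with large losses in amount or small interaction p they were 1.43 for CMTM6, 1.38 for TGOLN2, 1.37 for TPM4, 1.10 for KIF1C, 0.96 for CALU, 0.82 for FTH1, 0.77 for THBS1, 0.72 for MYL6, 0.65 for RGS4 and 0.43 for MMP2.

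Among the genes that rose most in untreated cells, by ratio or by amount, the differences were -1.49 for TOX, -1.13 for C4orf46, -1.13 for GPR157, -1.12 for CDC42SE2, -1.02 for E2F5, -0.98 for PXN, -0.96 for ADAMTS5, -0.95 for ARL6IP1, -0.86 for RPIA, -0.68 for NAT8L, -0.42 for EIF5A and -0.26 for TUBB. Among p53 targets and BCL2 family genes they were -1.28 for CYFIP2, -1.18 for BBC3, -0.79 for CDKN1A, -0.53 for PHLDA3, -0.49 for BAK1 and -0.48 for BAX, and 1.20 for BMF, 0.49 for MDM2, 0.41 for BCL2L2 and 0.30 for RRM2B, which fell in untreated cells. Cell cycle genes differed by -1.45 for PLK1, -1.33 for ORC6, -1.08 for LMNB1, -0.77 for ANLN, -0.75 for CCNE1 and 0.65 for CDK6.

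Metabolic genes differed by 1.30 for SGMS2, 0.69 for CMPK1, 0.43 for PFKM, -0.92 for HK2, -0.74 for PFKFB4, -0.50 for PFKFB3, -0.37 for PSAT1 and -0.31 for PRDX3. In protein synthesis and ATF4 genes the values were -1.27 for CHAC1, -0.56 for WDR12, -0.43 for RRN3, -0.41 for DDX21, -0.40 for ATF4 and -0.31 for NCL. Autophagy, mitophagy and lysosome genes differed by 1.08 for BNIP3L, 0.68 for FNIP2, 0.67 for LAMP2, 0.65 for PINK1, 0.63 for ATG2B, 0.54 for CALCOCO2, 0.52 for ATG14, 0.43 for STX17, 0.42 for ATG13, 0.38 for PPT1 and 0.32 for ATP6V1A. Among genes with the ChoRE letters STX12 differed by 0.63 and RAN by -0.40. Of the remaining genes, FGF2 differed by 0.63, NQO1 by 0.61, BIRC2 by 0.60, COL8A1 by 0.58, KLF3 by 0.45, ARNT by 0.36 and the signal recognition particle RNA RN7SL1 by 3.73. Its copy RN7SL2 differed by 4.07 and RN7SK by 1.96.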

How the results depend on the processing

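Every count of called genes over all tested genes kept within 1.5 times its value under all alternatives run. Of the 96 counts of called members of a gene list, 71 did so in every alternative and 25 did not; these 25 were counts of at most 11 genes. In untreated cells the number called ranged from 5628 to 6941 over the 13 alternatives, with 2876 to 3909 higher and 2752 to 3308 lower, 233 to 331 higher by at least 2-fold and 662 to 787 lower by at least 2-fold. Over their own alternatives, the genes called ranged from 3355 to 4557 in DXR cells, from 1220 to 2125 for the interaction and from 7356 to 8300 against siMondoA. Upper-quartile scaling moved the split the most, to 3909 higher and 2833 lower (57.98% higher, against 52.04%), and DESeq2 gave 3165 higher and 3139 lower. The labels do not say whether libraries with equal replicate numbers were handled together. Between siMlx and siControl, deviations from the group means correlated at r = 0.195, 0.052 and 0.245 for equal numbers. For unequal numbers r ran from -0.234 to 0.058, so a shared replicate effect is possible and was not tested. With the replicate block 3633 genes were higher and 3308 lower. Of the 168 gene results, 158 kept their direction and call in all 13 alternatives. ARRDC4, with 4 counts in siMlx and 3 in siControl libraries, ranged from -0.49 to 3.60 with 1 library left out. INCENP also lost its call with DESeq2 (adjusted p = 0.0541) and RLE scaling (0.0562), PLK1 with DESeq2 (0.0559) and MNT with no low-count filter (0.0509). With 17061466 to 29219280 counts per library, genes of few counts carry wide error, and in a 3-library group 1 library can set their fold change.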

Other observations

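Further gene groups moved in untreated siMlx cells, read against the 24.9% of tested genes that rose and the 23% that fell. Of 20 tested genes of the HIF pathway, 11 fell and 2 rose (median log2 fold change -0.23); 7 fell without siMlx replicate 3, and 1 rose without any single library other than siControl replicate 1. ARNT, the constitutive partner of HIF, was at 18.4, 17.9 and 17.1 CPM in siMlx libraries, against 41.2, 41.6 and 43.6 CPM in siControl libraries (-1.25, adjusted p = 1.87e-11). Among 30 senescence-associated secreted factors 10 fell and 3 rose (1 rose without siControl replicate 1), with the growth factor FGF2 at 46.7, 51.8 and 51.4 CPM in siMlx libraries, against 154, 147 and 143 CPM in siControl libraries (-1.57, adjusted p = 1.22e-10). Extracellular matrix genes fell in 12 of 33 cases and rose in 4, and the collagen gene COL8A1 was at -1.18 (adjusted p = 1.94e-09). In the NF-kB group 7 of 18 fell and 3 rose, with BIRC2, a ubiquitin ligase that restrains the noncanonical branch, at 23.7, 23.1 and 30.6 CPM in siMlx libraries, against 86.9, 72.5 and 92.7 CPM in siControl libraries (-1.705, adjusted p = 2.45e-11).

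Lipid, redox and respiratory lists held calls in both directions. Of 23 sterol synthesis genes 7 rose (3 without siMlx replicate 2) and 3 fell, the lowest being MSMO1, a sterol methyl oxidase (-1.27, adjusted p = 7.65e-07), and of 13 fatty acid synthesis genes 4 rose and 2 fell. Among 26 thioredoxin, glutathione and NRF2 target genes 9 rose and 8 fell (5 without siControl replicate 2 or siMlx replicate 1), including GCLM (-0.93), the modifier subunit of glutathione synthesis, and the quinone reductase NQO1 (-0.70). Respiratory complex I genes rose in 9 of 37 cases and fell in 1, and those of the other complexes rose in 10 of 39 and fell in 4. The complex I genes that rose numbered 3 without siControl replicate 1, 4 without siMlx replicate 2 and 5 without siMlx replicate 3, those that fell 0 to 3 with 1 library left out, and 6 genes of the other complexes rose without siControl replicate 3. In the KLF family KLF13 rose (1.34, adjusted p = 1.66e-09) and KLF5 (-1.36) and KLF3 (-1.07) fell. Of 12 clustered histone genes 0 rose and 3 fell, and poly(A) libraries measure most histone transcripts poorly. Of 8 tested fibroblast markers 1 rose (0 without siControl replicate 3, siMlx replicate 1 or siMlx replicate 2) and 2 fell, and of 4 tested blood and endothelium markers 1 fell. The listed blood and endothelium genes summed to 1.40, 1.01 and 1.51 CPM in siMlx libraries and 1.57, 2.34 and 2.71 CPM in siControl libraries.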
